A study of Homo sapiens with 14 samples.

Results

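Gene expression after CRISPR interference with LTR5 was described in endoderm derived from H9, an established line of human embryonic stem cells (hESC). The comparison took 6 of the 14 samples of the series, which are all of its bulk RNA-seq libraries of endoderm. In 3 of them the cells carried dCAS9-KRAB together with an sgRNA against LTR5 (LTR5 CRISPRi), and in the other 3 they carried dCAS9-KRAB without an sgRNA (control). Both groups were otherwise treated alike: hESC had received dCAS9-KRAB by lentivirus and were selected with puromycin, and were then differentiated for 3 days in Activin A at 100 ng/ml, with CHIR at 5 µM on the first day and 0.5 µM on the next. The control held no sgRNA of any kind, and it is not stated whether the libraries of a group came from separate cultures or transductions. The p-values therefore measure the spread between these libraries, and the sgRNA cannot be told apart from other differences between the transduced populations. Of the other bulk libraries, 4 titled foregut, 2 with and 2 without CRISPRi in the title, were used to look at the same genes in other samples, and 2 of undifferentiated hESC gave levels and entered 1 alternative fit over all 12 libraries. The titles of the foregut libraries and another of their labels disagree, which is described with their values.

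LTR5_Hs and LTR5B are long terminal repeats of the endogenous retrovirus HERVK. LTR5_Hs is the younger group and is restricted to apes, and LTR5B is older. A long terminal repeat carries the promoter and enhancer sequences of its virus, and a solitary copy can act on neighboring genes in the cell types whose transcription factors bind it. A dCAS9-KRAB fusion does not cut DNA: the KRAB domain recruits TRIM28 and the histone methyltransferase SETDB1, which place repressive marks around the bound site. Such marks can spread to genes beside the bound site, and genes far from any site are looked at separately here. Definitive endoderm arises from hESC through a primitive streak stage under Nodal or Activin and WNT signals, and is marked by SOX17, FOXA2, GATA6 and CXCR4.

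There were 999 integrants that carry the name LTR5_Hs or LTR5B on the main chromosomes of GRCh37, 585 with LTR5_Hs and 418 with LTR5B in their names. The sgRNA was designed on the LTR5B consensus, and the copies it can bind were not searched for here, so every LTR5_Hs and LTR5B integrant is counted as LTR5.

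The 6 endoderm libraries held 11583063 to 21534304 gene reads, of which 8.30 to 14.4% were mitochondrial, and TE reads came to 1.21 to 1.75% of the gene reads. Levels are given as CPM, that is, gene counts scaled to the same total, after TMM scaling. On that scale a level of 0.138 to 0.252 CPM stood for 3 reads, depending on the library. All 15 matched members of the definitive endoderm list were detected, and their summed level was 6293 to 7160 CPM in the controls and 7075 to 8278 CPM with the sgRNA, against 77.7 and 52.3 CPM in the hESC libraries. SOX17 was at 284, 207 and 231 CPM in the controls and 147, 283 and 336 CPM with the sgRNA, and FOXA2 at 114, 138 and 137 CPM in the controls and 88.3, 127 and 156 CPM with the sgRNA. The groups did not separate as wholes. Correlations of log2 CPM over genes were 0.968 to 0.992 within groups and 0.968 to 0.989 between them, and control 1 resembled CRISPRi 2 (0.983) more than either of the other controls (0.977 and 0.978).

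Summed reads in LTR5_Hs and LTR5B integrants were lower with the sgRNA. As CPM without TMM scaling, their sum was 23.8, 24.8 and 22.8 in the controls and 12.0, 16.0 and 16.8 with the sgRNA, so that the groups did not overlap. The means were 23.8 ± 0.980 and 14.9 ± 2.58 (SD, n = 3 each; log2 fold change, log2FC, -0.69; 2-sided exact permutation p = 0.1, the smallest that 3 against 3 libraries allow). LTR5B went from 5.37 ± 0.291 to 2.63 ± 0.991 (log2FC -1.11) and LTR5_Hs from 18.6 ± 0.758 to 12.4 ± 1.77 (log2FC -0.59). Outside exons the sums were 12.7, 13.4 and 11.3 against 7.26, 9.68 and 11.7, which overlap (log2FC -0.41, exact permutation p = 0.2). LTR5A, a related group of the same family with 254 integrants, lay on the other side, at 39.1, 47.3 and 62.8 in the controls and 88.7, 91.6 and 110.4 with the sgRNA (log2FC 0.98, exact permutation p = 0.1). Its most read copy, on chromosome 8, gave 26.2, 38.0 and 49.9 against 69.2, 74.6 and 91.2 of these, and the 253 other copies 12.9, 9.29 and 12.9 against 19.5, 17.1 and 19.3.

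Only 150 of the 999 LTR5 integrants had a read in endoderm and 37 held enough reads outside exons to be tested singly, so most copies could not be assessed at this depth. Among all 23581 integrants tested, 6 (0.0254%) were called. A call needed a BH-adjusted p below 0.05 together with a change of more than 2-fold, and 4 were lower and 2 higher. One of the 6 was an LTR5_Hs, the copy at chromosome 6, 32624903 to 32625860. It held 39, 52 and 26 reads in the controls and 2, 7 and 5 with the sgRNA (log2FC -2.71 ± 0.61, BH-adjusted p = 0.0293). Of the 37 tested LTR5 integrants it was the 1 with an unadjusted p under 0.05. The MER11C integrant next to it, at 32623524 to 32624592, fell likewise, from 54, 26 and 29 reads to 3, 6 and 2 (log2FC -3.02 ± 0.63, BH-adjusted p = 0.00963). Both lie downstream of HLA-DQB1, a gene that fell as well. Whether their reads belong to transcripts of that gene was not tested. The other calls rested on 1 library or were uneven: an AluSg7 on chromosome 1 held 447 reads in control 2 and 0 in the other 5 libraries, an AluSz on chromosome 2 held 69 reads in control 3 and 0 elsewhere, and an L1PA10 on chromosome 21 held 15453 reads in CRISPRi 3 against 653 to 4768 in the rest. An L1PA2 on the X chromosome held 338 reads in CRISPRi 3 and 31 to 115 in the rest. The provirus upstream of PRODH, which overlaps an exon and so was not tested, held 62, 50 and 31 reads in the controls and 7, 7 and 11 with the sgRNA. This provirus and the LTR5_Hs on chromosome 6 are both part of the summed LTR5 reads. Unscaled, that sum was 469, 534 and 374 reads in the controls and 200, 314 and 195 with the sgRNA. The sum therefore does not tell how many copies fell. The LTR5 integrants nearest to CST1, SERPINB9, RTL8C and RNF24 held 0 reads in all 6 libraries.

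In the edgeR quasi-likelihood test, 7 of 20407 genes (0.0343%) were called, 6 lower and 1 higher with the sgRNA. Of the 6 that fell, 4 lie within 6 kb of an LTR5 integrant. HLA-DQB1, the beta chain of the MHC class II molecule DQ (chromosome 6, 32627244 to 32636160), was at 209, 155 and 168 CPM in the controls and 38.1, 49.0 and 35.4 CPM with the sgRNA (log2FC -2.10 ± 0.20, BH-adjusted p = 0.00212, where the value after ± is the standard error). The LTR5_Hs described above lies 1384 bp downstream of the gene. CST1, a secreted inhibitor of cysteine proteases (chromosome 20, 23728199 to 23731905), was at 22.4, 17.9 and 9.25 CPM in the controls and 1.52, 1.96 and 3.36 CPM with the sgRNA (log2FC -2.85 ± 0.37, BH-adjusted p = 0.034), with an LTR5_Hs joined to HERVK-int lying 4.60 kb upstream. Control 3 was the lowest of the controls for CST1, but still above each library with the sgRNA. PRODH, the mitochondrial proline dehydrogenase (chromosome 22, 18900290 to 18924066), was at 12.5, 23.1 and 14.4 CPM in the controls and 1.91, 3.78 and 4.20 CPM with the sgRNA (log2FC -2.31 ± 0.33, BH-adjusted p = 0.0373), and a HERVK provirus with 2 LTR5_Hs lies 2.12 kb upstream. SERPINB9, an inhibitor of granzyme B (chromosome 6, 2887504 to 2903543), was at 245, 209 and 147 CPM in the controls and 39.3, 78.9 and 52.6 CPM with the sgRNA (log2FC -1.79 ± 0.26, BH-adjusted p = 0.0373), with an LTR5_Hs 5.35 kb upstream.

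The remaining 3 calls lie further away. CTSK, the cysteine protease cathepsin K, is 159 kb from the nearest LTR5 integrant and was at 25.5, 22.1 and 17.0 CPM in the controls and 6.26, 8.22 and 5.88 CPM with the sgRNA (log2FC -1.63 ± 0.24, BH-adjusted p = 0.0373). NTS, the precursor of the peptide neurotensin, is 404 kb away and was at 322, 218 and 297 CPM in the controls and 54.1, 107 and 76.1 CPM with the sgRNA (log2FC -1.80 ± 0.25, BH-adjusted p = 0.0373). OXTR, the oxytocin receptor, lies 1.08 Mb from any LTR5 integrant and was the gene that rose, at 11.1, 7.51 and 9.0 CPM in the controls and 32.3, 23.4 and 24.1 CPM with the sgRNA (log2FC 1.55 ± 0.23, BH-adjusted p = 0.0373). In all 7 genes the groups did not overlap. With 3 against 3 libraries, full separation of a gene has a 2-sided exact permutation p of 0.1. Here and below, genes named for small p-values gain no further support from separation, whose share over all genes was not counted. Without control 1, control 2 or CRISPRi 1 only HLA-DQB1 remained called, and without CRISPRi 2 there were 4 calls, while DESeq2 called 53 genes with the 7 among them. HLA-DQB1 was called in all 14 alternatives, with adjusted p-values up to 0.0411. Reads of HLA genes can be shared with close relatives, which makes their counts uncertain.

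**Figure D1:**
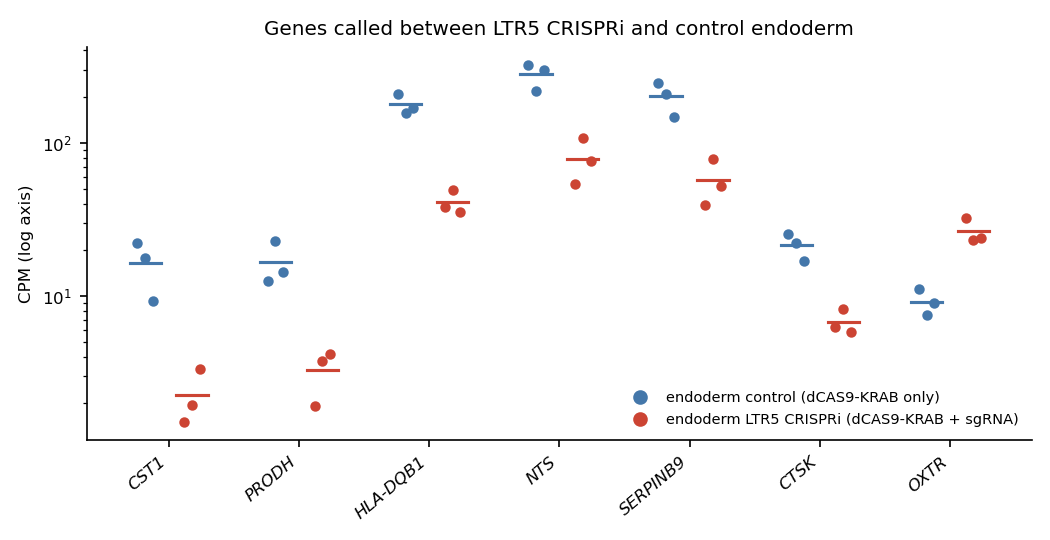
CPM (log axis) of the 7 called genes in each of the 6 endoderm libraries; points are libraries and lines are group means. The groups do not overlap for any of the genes, and OXTR is the one with higher values with the sgRNA.

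Further genes were read at an unadjusted p under 0.05, which 515 genes met with lower and 541 with higher values in LTR5 CRISPRi (2.52% and 2.65% of those tested; 315 and 310 without control 2). Such genes did not pass the adjusted test and are given as values. From here on, levels are those of controls 1, 2 and 3 against those of CRISPRi 1, 2 and 3. Among genes within 100 kb of LTR5, several of the smallest p-values belonged to genes with an integrant at or in the gene. RTL8C, a gene derived from the Gag gene of an ancient retrotransposon, was at 45.8, 54.2 and 54.3 against 17.5, 24.5 and 21.3 CPM (log2FC -1.26 ± 0.20, unadjusted p = 2.06e-05, BH-adjusted 0.0525), with an LTR5_Hs 1.05 kb upstream. DPP7, a dipeptidyl peptidase of intracellular vesicles with an LTR5B in the gene, was at 12.2, 7.41 and 7.19 against 2.57, 2.87 and 2.86 CPM (log2FC -1.67 ± 0.28, unadjusted p = 5.22e-05, BH-adjusted 0.118). RNF24, which encodes a membrane RING finger protein, was at 41.0, 35.3 and 32.1 against 15.4, 18.9 and 15.5 CPM (log2FC -1.10 ± 0.19, unadjusted p = 7.21e-05, BH-adjusted 0.137), 18.5 kb from its integrant. SEMA4A, a semaphorin, was at 3.19, 3.41 and 3.31 against 1.05, 0.956 and 1.26 CPM (log2FC -1.58 ± 0.31, unadjusted p = 0.000217, BH-adjusted 0.199). HLA-DRB1, another MHC class II beta chain, lies 67.3 kb away and was at 78.2, 75.4 and 90.6 against 46.1, 36.4 and 31.3 CPM (log2FC -1.08 ± 0.19, unadjusted p = 7.6e-05, BH-adjusted 0.137). In these 5 genes the groups were apart and each library with the sgRNA was below each control. FNDC4, a secreted fibronectin domain protein 30.9 kb from LTR5, lay on the other side, at 19.1, 16.9 and 19.2 against 68.1, 29.5 and 42.5 CPM (log2FC 1.36 ± 0.26, unadjusted p = 0.000161, BH-adjusted 0.199).

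The balance of lower and higher values differed with distance. Where an LTR5_Hs or LTR5B integrant lies in or overlaps the gene, 35 of 336 tested genes had lower values at that p and 7 had higher ones. Up to 10 kb it was 17 lower and 5 higher of 274, from 50 to 100 kb 22 and 27 of 894, and beyond 500 kb 302 and 364 of 13006. Within 100 kb, 98 of the 153 genes at that p were lower (64.1%), and beyond 500 kb 302 of 666 (45.3%), against 49.6% over all genes with a known place. Genes are not replicates and neighbors share integrants, so no test was attached to these shares. Among protein-coding genes there were 33 lower and 1 higher of the 264 that hold an integrant. Up to 10 kb it was 16 and 1 of 204, and beyond 500 kb 278 and 212 of 9747. Over all protein-coding genes with a known place it was 466 and 286 of 15030, so that 62.0% of those at that p were lower. Median log2FCs were small throughout, at -0.13 for protein-coding genes with an integrant, -0.11 up to 10 kb and -0.04 beyond 500 kb.

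Zinc finger genes made up part of this. The ZNF genes, many of which encode KRAB repressors that themselves bind TEs, lie in clusters. Within 10 kb of LTR5, 17 of 73 tested ZNF genes were lower and 0 higher, while beyond 500 kb 1 of 175 was lower and 2 were higher. Without ZNF genes, 71 of 1606 protein-coding genes within 100 kb were lower (4.42%) and 20 higher. Beyond 500 kb it was 277 (2.89%) and 210 of 9593. ZNF614, with an LTR5_Hs in the gene, was at 36.1, 28.0 and 26.3 against 10.2, 13.2 and 16.9 CPM (log2FC -1.14 ± 0.23, unadjusted p = 0.000277, BH-adjusted 0.199). ZNF649, with one 0.652 kb upstream, was at 38.0, 41.1 and 36.9 against 21.8, 22.1 and 17.8 CPM (log2FC -0.89 ± 0.18, unadjusted p = 0.000281, BH-adjusted 0.199). ZNF610 had log2FC -1.86 ± 0.36, unadjusted p = 0.000166, ZNF90 log2FC -0.83 ± 0.23, unadjusted p = 0.00364, and ZNF525 log2FC -1.06 ± 0.30, unadjusted p = 0.0037. In all 5 the groups were apart, though reads of these paralogs may be shared.

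The MHC class II genes present extracellular peptides, and most lie together on chromosome 6. Of 11 tested members of the list, 6 had lower and 0 had higher values at an unadjusted p below 0.05, with a median log2FC of -0.98 against -0.02 over all genes, and 1 of them, HLA-DQB1, was called. At that p, 2.52% of all genes tested were lower and 2.65% higher. Without 1 library, 5 to 6 members were lower, and the median was -0.63 without control 3 and -0.65 with all 12 libraries in the fit. The summed level was 274 to 326 CPM in the controls and 92.4 to 118.7 CPM with the sgRNA. HLA-DQB1 and HLA-DRB1, both within 100 kb of the same LTR5_Hs, made up most of the difference in the sum. Their means were 178 and 81.4 CPM in the controls and 40.8 and 37.9 CPM with the sgRNA. Among the tested members 6 lie within 100 kb of LTR5, while HLA-DRA and HLA-DOA do not. HLA-DQA1, the alpha chain that pairs with HLA-DQB1, was low, at 1.595, 3.13 and 3.00 against 0.132, 0.717 and 0.924 CPM (log2FC -2.10 ± 0.52, unadjusted p = 0.00142). HLA-DRA, 212 kb from LTR5, was at 1.40, 2.16 and 1.63 against 0.198, 0.861 and 0.672 CPM (log2FC -1.52 ± 0.48, unadjusted p = 0.00762). HLA-DOA was at 5.53, 5.80 and 5.81 against 2.37, 2.96 and 3.19 CPM (log2FC -0.98 ± 0.26, unadjusted p = 0.00239). CD74, the invariant chain, lies on another chromosome 40.8 kb from an LTR5_Hs and overlapped between the groups, at 4.24, 9.02 and 7.81 against 3.76, 3.63 and 5.21 CPM (log2FC -0.73 ± 0.31, unadjusted p = 0.037). HLA-DPB1 (log2FC -0.33 ± 0.24), HLA-DRB5 (-0.36 ± 0.37) and HLA-DMA (-0.08 ± 0.33) overlapped too. CIITA, the activator of class II genes, HLA-DQA2, HLA-DQB2 and HLA-DOB held at most 3 reads in every endoderm library. Of the 12 MHC class I presentation genes tested, 0 reached an unadjusted p under 0.05, and their median was -0.44. B2M, the light chain of class I molecules, was at 97.6, 91.2 and 99.8 against 71.6, 98.3 and 112 CPM.

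The families of 2 other called genes were counted likewise. Of 9 serpins tested, only SERPINB9 was lower at an unadjusted p under 0.05, where 2.52% of all genes tested were lower. SERPINB6, its neighbor 21.5 kb from LTR5, was at 131, 132 and 151 against 132, 112 and 106 CPM (log2FC -0.22 ± 0.17), and SERPINB1 was at 53.3, 40.3 and 41.5 against 36.1, 39.1 and 40.2 CPM (log2FC -0.20 ± 0.18). Of 5 cystatins only CST1 was, and CST3, 55.5 kb from LTR5 in the same cluster, was at 19.2, 36.4 and 36.2 against 22.02, 30.6 and 37.4 CPM (log2FC 0.00 ± 0.27).

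Genes over 500 kb from every LTR5_Hs and LTR5B integrant were taken to look for secondary differences. Among those that code for a protein and averaged 1 CPM or more, 139 (1.78% of 7814) had groups that did not overlap and an unadjusted p under 0.01, 68 lower and 71 higher with the sgRNA. At any distance the share was 1.71%, and within 100 kb of LTR5 it was 2.75%. Of the 139, only OXTR passed the adjusted test. The 1 CPM was a mean over all 6 libraries, so a gene low in 1 group could pass through the other. The largest lower values belonged to genes of a few CPM. With the sgRNA, APLN, SST, PADI2, TIMP4, MARVELD3, B3GALT5 and IGSF9B averaged 0.492 to 0.893 CPM, so they passed through the controls. APLN, the peptide ligand apelin, was at 5.23, 3.22 and 1.56 against 1.19, 0.621 and 0.588 CPM (log2FC -2.04 ± 0.46, unadjusted p = 0.000684, BH-adjusted 0.254). SST, the hormone somatostatin, was at 1.05, 1.89 and 2.88 against 0.132, 0.335 and 1.01 CPM (log2FC -2.02 ± 0.61, unadjusted p = 0.00527, BH-adjusted 0.546). ST14, the membrane serine protease matriptase, was at 3.04, 4.19 and 3.06 against 0.989, 0.956 and 1.18 CPM (log2FC -1.70 ± 0.32, unadjusted p = 0.000148, BH-adjusted 0.199). MARVELD3, a tight junction protein, was at 3.84, 3.04 and 1.38 against 0.989, 0.765 and 0.924 CPM (log2FC -1.61 ± 0.41, unadjusted p = 0.00174). PADI2, which converts arginine to citrulline in proteins, was at 1.25, 1.43 and 2.44 against 0.527, 0.478 and 0.504 CPM (log2FC -1.72 ± 0.44, unadjusted p = 0.00171). TIMP4, an inhibitor of matrix metalloproteases, was at 2.34, 3.73 and 2.44 against 1.12, 0.861 and 0.588 CPM (log2FC -1.69 ± 0.37, unadjusted p = 0.000509). B3GALT5, a galactosyltransferase, had log2FC -1.55 ± 0.45, unadjusted p = 0.0043, and IGSF9B, an adhesion molecule of synapses, log2FC -1.49 ± 0.42, unadjusted p = 0.00351. Control 1 was the highest library for APLN, MARVELD3 and B3GALT5.

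The largest higher values included FOXF1 and several HOX genes. In the controls FOXF1, HOXB2, HOXB3, HOXD10 and CFC1 averaged 0.416 to 0.969 CPM, so they passed the filter through the libraries with the sgRNA. FOXF1, a transcription factor of splanchnic mesoderm, was at 1.25, 0.599 and 1.06 against 5.41, 2.53 and 2.94 CPM (log2FC 1.92 ± 0.40, unadjusted p = 0.000336, BH-adjusted 0.214). HOXB2 was at 1.25, 0.276 and 1.19 against 3.69, 3.11 and 2.27 CPM (log2FC 1.78 ± 0.46, unadjusted p = 0.00204). HOXB3 was at 0.548, 0.599 and 1.0 against 2.04, 2.44 and 2.02 CPM (log2FC 1.63 ± 0.38, unadjusted p = 0.000931). HOXD10 was at 0.598, 0.276 and 0.375 against 2.97, 1.72 and 0.840 CPM (log2FC 2.16 ± 0.52, unadjusted p = 0.00108). The HOX genes give cells their position along the body axis. CFC1, or Cryptic, a co-receptor of Nodal, was at 0.399, 0.645 and 0.875 against 2.77, 4.11 and 1.596 CPM (log2FC 2.19 ± 0.44, unadjusted p = 0.000237). RFPL3 was at 0.897, 1.29 and 1.94 against 11.5, 4.06 and 3.53 CPM (log2FC 2.23 ± 0.46, unadjusted p = 0.000283). GYPB, a glycophorin of the red cell surface, was the most abundant of these, at 20.6, 27.0 and 44.6 against 58.3, 92.4 and 126 CPM (log2FC 1.61 ± 0.32, unadjusted p = 0.000194, BH-adjusted 0.199). CRISPRi 1 was the highest library for RFPL3, HOXD10, FOXF1 and HOXB2. CFC1, GYPB and RFPL3 have near-identical relatives, so their counts are uncertain.

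**Figure D2:**
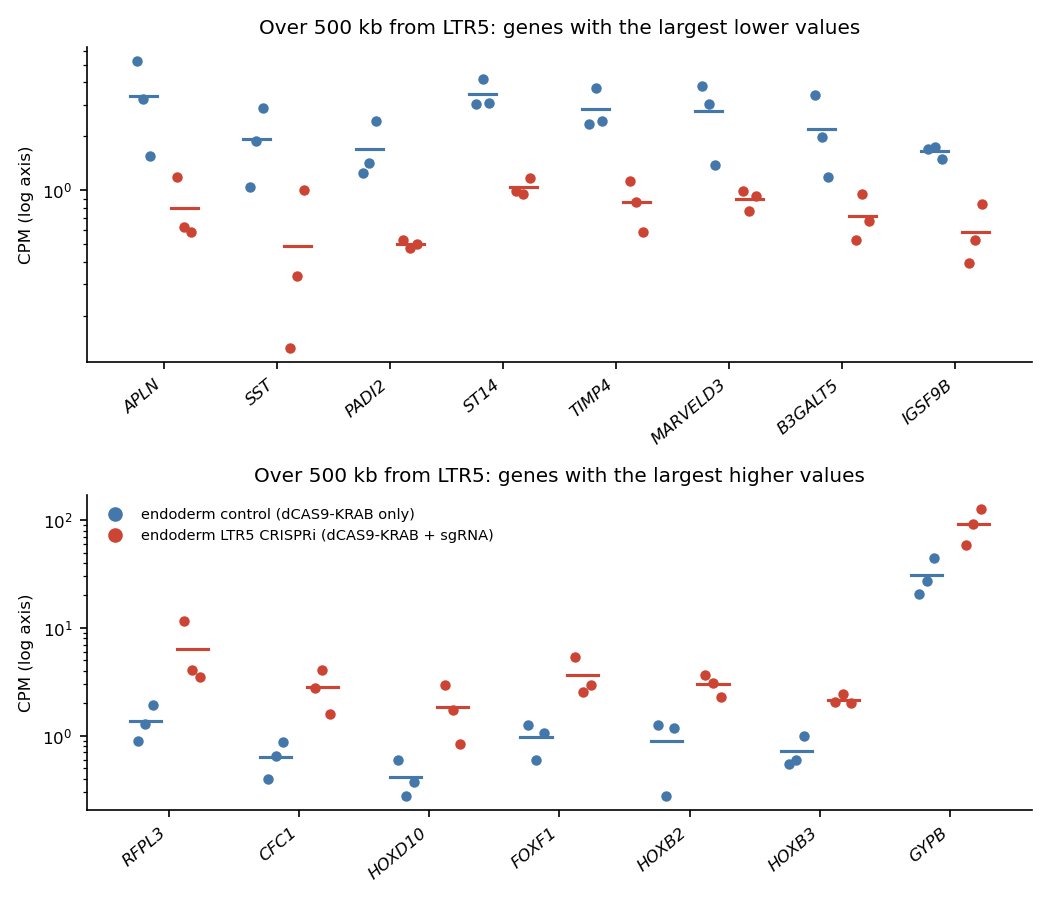
CPM (log axis) of the 15 protein-coding genes over 500 kb from LTR5 named for lower (top) and higher (bottom) values among those with groups that do not overlap; points are libraries and lines are group means. GYPB is the most abundant, at 20.6 to 126 CPM, and the others stay at or below 11.5 CPM.

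Lists of genes that mark cell states were counted at an unadjusted p below 0.05, which 2.52% of all genes tested met with lower and 2.65% with higher values. No member of the definitive endoderm list had an unadjusted p under 0.05 in either direction, of 15 tested, and the median log2FC was 0.00. GATA6 was at 432, 325 and 338 against 335, 388 and 457 CPM (log2FC 0.13 ± 0.19). CER1, a secreted Nodal and BMP antagonist, was at 3962, 3553 and 4015 against 5368, 4368 and 3890.5 CPM (log2FC 0.26 ± 0.18). CXCR4 was at 362, 286 and 236 against 245, 187 and 226 CPM (log2FC -0.40 ± 0.20). Pluripotency genes were lower in 4 of 13 and higher in 0, with a median of -0.50. NANOG was at 27.4, 30.4 and 21.6 against 5.80, 18.1 and 13.6 CPM (log2FC -1.05 ± 0.33, unadjusted p = 0.00669). PRDM14 was at 11.6, 18.6 and 12.3 against 6.92, 8.89 and 6.72 CPM (log2FC -0.89 ± 0.25, unadjusted p = 0.00353). DPPA4 was at 128, 105 and 88.9 against 65.5, 83.2 and 74.9 CPM (log2FC -0.50 ± 0.19, unadjusted p = 0.0211). In these 3 genes the groups were apart. ZFP42 overlapped, at 28.2, 22.01 and 14.9 against 12.7, 15.1 and 9.75 CPM (log2FC -0.77 ± 0.26, unadjusted p = 0.00981). POU5F1 was at 826, 716 and 652 against 675, 531 and 386 CPM (log2FC -0.44 ± 0.21, unadjusted p = 0.0512). SOX2 was at 29.1, 25.0 and 15.5 against 12.1, 20.4 and 14.6 CPM (log2FC -0.54 ± 0.26, unadjusted p = 0.0631). The summed level of the list overlapped between the groups, at 2306 to 2925 CPM in the controls and 1914 to 2404 CPM with the sgRNA. Without CRISPRi 2 the lower members were 8, and they were 3 without CRISPRi 3 or control 1.

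Mesoderm genes were higher in 5 of 13 and lower in 0, with a median of 0.79, where 2.65% of all genes were higher and 2.52% lower. HAND1, a transcription factor of extraembryonic and lateral mesoderm, was at 13.7, 11.7 and 25.1 against 52.3, 36.2 and 47.4 CPM (log2FC 1.45 ± 0.28, unadjusted p = 0.000158, BH-adjusted 0.199). MESP1, which marks early cardiac mesoderm, was at 5.68, 3.09 and 4.81 against 10.1, 7.98 and 5.04 CPM (log2FC 0.79 ± 0.31, unadjusted p = 0.024). MESP2 was at 1.79, 1.29 and 2.06 against 4.29, 4.49 and 1.93 CPM (log2FC 1.09 ± 0.36, unadjusted p = 0.00982). In both MESP genes the groups overlapped through CRISPRi 3. HAND2, at 0.0997, 0.138 and 0.188 against 0.396, 0.669 and 0.756 CPM (log2FC 2.09 ± 0.69, unadjusted p = 0.0101), stood at few reads. In KDR, PDGFRA and TBXT the groups overlapped. KDR was at 151, 67.3 and 75.9 against 106, 92.5 and 44.4 CPM (log2FC -0.26 ± 0.33). PDGFRA was at 181, 50.3 and 87.9 against 160.5, 96.5 and 66.5 CPM (log2FC 0.03 ± 0.39). TBXT, the streak and early mesoderm factor Brachyury, was at 27.3, 22.8 and 21.9 against 17.0, 27.0 and 13.5 CPM (log2FC -0.30 ± 0.25). The summed level of the list overlapped, at 199.7 to 436 CPM in the controls and 248 to 426 CPM with the sgRNA. Without 1 library the higher members were 4 to 8, with 8 without control 1, 4 without control 2, and 4 and 1 lower without CRISPRi 2, and with all 12 libraries in the fit they were 2. The median was 0.50 without control 2 and also without CRISPRi 1, and 1.07 without control 1. Of 8 amnion and trophoblast genes tested, HAND1 and GATA2 (1.30, 0.783 and 0.938 against 3.89, 2.103 and 1.43 CPM) were higher and 0 lower, and the sum was 26.1 to 41.3 CPM against 54.4 to 66.8 CPM, with TFAP2B and VTCN1 at 3 reads or fewer. HAND1, which is also a member of the mesoderm list, made up most of the difference in the sum, with means of 16.8 CPM in the controls and 45.3 CPM with the sgRNA. ISL1, a member of both lists too, had means of 7.57 and 7.40 CPM, and in GATA3 the groups overlapped (log2FC 0.25 ± 0.35). Without CRISPRi 1, or with all 12 libraries in the fit, 1 of the list was higher. Whether a change in the share of such cells plays a part was not tested, and in bulk samples fewer cells of a type and less RNA per cell cannot be told apart. For the ectoderm and neural, germ cell, and foregut and hepatic lists, 0 of 10, 0 of 7 and 0 of 6 tested members had an unadjusted p under 0.05.

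The HOX genes were counted after their values were seen. Of 22 tested, 9 were higher at an unadjusted p under 0.05 and 0 lower, in the HOXB and HOXD clusters over 2 Mb from the nearest LTR5_Hs or LTR5B integrant. Among all genes tested, 2.65% were higher and 2.52% lower at that p. In HOXB2, HOXB3, HOXB4 and HOXD10 the groups were apart, and in the other 5 they overlapped. The 9 genes were taken for their p-values, so this separation adds no support. Their levels were low: the sum over all HOX genes was 11.2 to 13.5 CPM in the controls and 19.7 to 29.8 CPM with the sgRNA, against 4.32 and 5.14 CPM in hESC and 319 to 389 CPM in the libraries titled foregut. Without CRISPRi 1, 5 were higher, with all 12 libraries in the fit 4 of 30, and with at least 10 reads in 3 libraries 3 of 5.

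Among signaling genes, those of the BMP pathway come first. Of 14 BMP pathway genes, 3 were higher and 1 lower at an unadjusted p under 0.05. The shares over all genes tested were 2.65% higher and 2.52% lower. A count of 1 in a list of this size is not read as a result about the pathway. BMP4, the ligand that induces mesoderm and amnion, was at 52.5, 30.8 and 68.8 against 144, 95.7 and 88.1 CPM (log2FC 1.12 ± 0.28, unadjusted p = 0.00133), and FST, a secreted antagonist, at 135, 84.5 and 108 against 256, 173 and 174 CPM (log2FC 0.90 ± 0.22, unadjusted p = 0.00119). NOG, or Noggin, was at 6.63, 2.16 and 3.56 against 9.03, 6.21 and 6.89 CPM (log2FC 0.86 ± 0.36, unadjusted p = 0.0316). CHRD, a further antagonist, was lower, at 4.09, 7.97 and 3.56 against 2.44, 1.77 and 3.53 CPM (log2FC -1.01 ± 0.37, unadjusted p = 0.0162). ID1, ID2 and ID3, which BMP signals induce, had log2FCs of -0.20 ± 0.24, -0.48 ± 0.28 and -0.11 ± 0.18. Of 18 WNT targets and antagonists, NKD1 (20.6, 12.8 and 22.9 against 38.0, 29.2 and 27.9 CPM), LEF1 (1.84, 1.47 and 2.06 against 3.43, 3.82 and 2.86 CPM), WNT5B and LGR5 were higher and 0 lower, while AXIN2 and SP5, both direct targets, had log2FCs of -0.08 ± 0.18 and -0.16 ± 0.18. Of 15 Nodal pathway genes CFC1 was higher and GDF3, a Nodal-like ligand, was lower, at 20.9, 26.3 and 15.8 against 9.43, 14.9 and 8.23 CPM (log2FC -0.92 ± 0.26, unadjusted p = 0.00397). NODAL itself was at 156, 215 and 176 against 219, 165 and 167 CPM (log2FC 0.03 ± 0.19), and LEFTY1, a feedback antagonist, ranged widely, at 68.0, 210.1 and 115 against 40.0, 64.4 and 134 CPM (log2FC -0.69 ± 0.42). Of 15 FGF pathway genes, FGF8 was higher (log2FC 0.48 ± 0.19) and FGFR3 lower (-0.50 ± 0.21). These counts moved with the libraries in the fit. With all 12 libraries 0 WNT genes were higher and 1 lower, and in the FGF list 0 were higher or lower, as also without CRISPRi 2, CRISPRi 3 or control 1. Without control 2, 2 WNT genes and 2 BMP genes were higher and 0 BMP genes lower, and without CRISPRi 1, 3 Nodal pathway genes were higher.

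**Figure D3:**
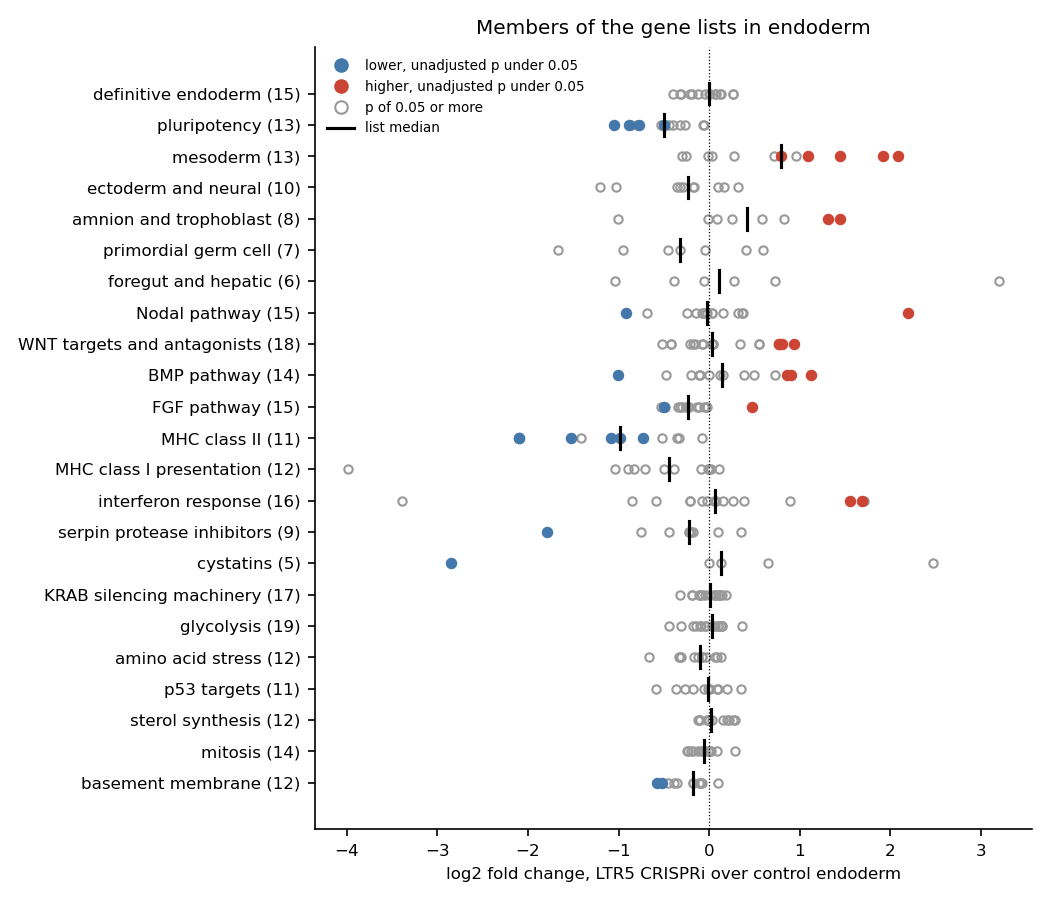
log2FC (LTR5 CRISPRi over control) of every tested member of the gene lists other than HOX, with the number tested in parentheses; filled points have an unadjusted p under 0.05 and black bars are list medians. The medians furthest from 0 are those of MHC class II (-0.98), mesoderm (0.79) and pluripotency (-0.50).

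Of 16 interferon response genes, OAS1 (3.19, 2.58 and 6.94 against 18.3, 7.74 and 10.6 CPM) and IFIT2 (0.748, 0.0921 and 0.438 against 2.31, 1.15 and 0.588 CPM) were higher and 0 lower, and without CRISPRi 1 or control 2 there was 1 higher and 1 lower. For this list and the next, the shares over all genes tested were 2.65% higher and 2.52% lower. Of 12 basement membrane genes, HSPG2, the proteoglycan perlecan, was lower at 132, 134 and 121 against 90.3, 81.7 and 92.8 CPM (log2FC -0.53 ± 0.17, unadjusted p = 0.00766), as was COL4A6, a type IV collagen with an LTR5_Hs in the gene, at 47.4, 62.6 and 50.6 against 27.2, 38.5 and 40.5 CPM (log2FC -0.57 ± 0.21, unadjusted p = 0.016). Without 1 library, the lower members of this list were 1 to 4, with 1 without CRISPRi 2 or control 2 and 4 without control 3. In the lists for the KRAB silencing machinery, glycolysis, amino acid stress, p53 targets, sterol synthesis and mitosis, 0 of 17, 19, 12, 11, 12 and 14 tested members had an unadjusted p under 0.05. TRIM28, the partner of the KRAB domain, was at 619, 791 and 739 against 769, 589 and 622 CPM (log2FC -0.10 ± 0.18). SETDB1 was at 60.9, 65.0 and 58.1 against 72.1, 46.6 and 49.6 CPM (log2FC -0.11 ± 0.19).

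The 4 libraries titled foregut share no control with endoderm and gave a look at the same genes in samples that had not served to name them. Their labels disagree: the status field of the 2 titled CRISPRi gives dCAS9-KRAB without an sgRNA, and that of the 2 titled control gives hESC. The groups were therefore taken from the titles alone. The direction of every foregut value here rests on them too, given as libraries titled CRISPRi over those titled control. Summed LTR5_Hs and LTR5B reads, as CPM without TMM scaling, were 21.5 and 18.0 (titled control) against 10.0 and 13.3 (titled CRISPRi). LTR5B alone was at 12.4 and 9.29 against 5.59 and 4.28, while LTR5_Hs overlapped, at 9.10 and 8.75 against 4.43 and 10.9. These foregut sums were not tested. In the libraries titled foregut, the summed foregut and hepatic markers were 2662 to 3540 CPM against 15.4 to 30.4 CPM in endoderm, which bears on the tissue and not on the sgRNA. In them 33 of 20044 genes (0.165%) were called, 23 lower and 10 higher. Genes with lower values at an unadjusted p below 0.05 made up 1.98% and those with higher values 1.51%. Of the 12 called lower within 100 kb of LTR5, 8 were also lower in endoderm at that p. Of the 7 genes called in endoderm 4, all of them near LTR5, were lower in foregut at an unadjusted p under 0.05. Of the 8 far genes named for lower values and the 7 named for higher values, 0 of 8 and 0 of 4 tested went the same way at that p, and APLN went the opposite way. Leaving out foregut CRISPRi 1 raised the calls to 527, and leaving out foregut control 1 lowered them to 16. With at least 10 reads in 2 libraries 1 gene was called, with higher values, so none of the lower calls was kept.

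Among single genes, CST1 was at 25.8 and 34.4 against 1.38 and 0 CPM (log2FC -5.40 ± 0.58, BH-adjusted p = 2.84e-17), and PRODH at 10.5 and 19.0 against 4.13 and 0.3495 CPM (log2FC -2.71 ± 0.62, BH-adjusted p = 0.00912). RTL8C was at 147 and 167 against 19.8 and 11.6 CPM (log2FC -3.32 ± 0.37, BH-adjusted p = 1.43e-15), and DPP7 at 39.0 and 93.6 against 8.09 and 4.28 CPM (log2FC -3.42 ± 0.42, BH-adjusted p = 1.06e-12). With at least 10 reads in 2 libraries the adjusted p in edgeR was 1.0 for CST1 and PRODH, 0.0947 for RTL8C and 0.433 for DPP7, and over 8 alternatives CST1 was called in 6, PRODH in 2, and RTL8C and DPP7 in 7 each. HLA-DQB1 had lower levels in these libraries than in the endoderm controls, at 12.0 and 9.39 against 5.15 and 3.84 CPM (log2FC -1.26 ± 0.61, unadjusted p = 0.0404, BH-adjusted 1). SERPINB9 was at 40.1 and 14.5 against 16.2 and 13.8 CPM (log2FC -0.87 ± 0.43, unadjusted p = 0.0441, BH-adjusted 1). CTSK and NTS, the called genes that fell further from LTR5, were at 1.82 and 7.29 against 5.15 and 7.78 CPM (log2FC 0.50 ± 0.71, unadjusted p = 0.486, BH-adjusted 1) and at 12.0 and 2.54 against 4.03 and 5.33 CPM (log2FC -0.63 ± 0.68, unadjusted p = 0.354, BH-adjusted 1). OXTR had at most 2.88 CPM in these libraries. The difference of the CRISPRi effect between the tissues was tested itself, and 44 of 22708 genes (0.194%) differed by the same rule. For the called genes it did not pass, with foregut minus endoderm differences of -2.56, adjusted p 0.544 for CST1, -0.40, adjusted p 1 for PRODH, 0.83, adjusted p 0.575 for HLA-DQB1 and 1.15, adjusted p 0.7 for NTS on the log2 scale. With a block for the replicate number or without foregut control 1, 0 genes differed.

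**Figure D4:**
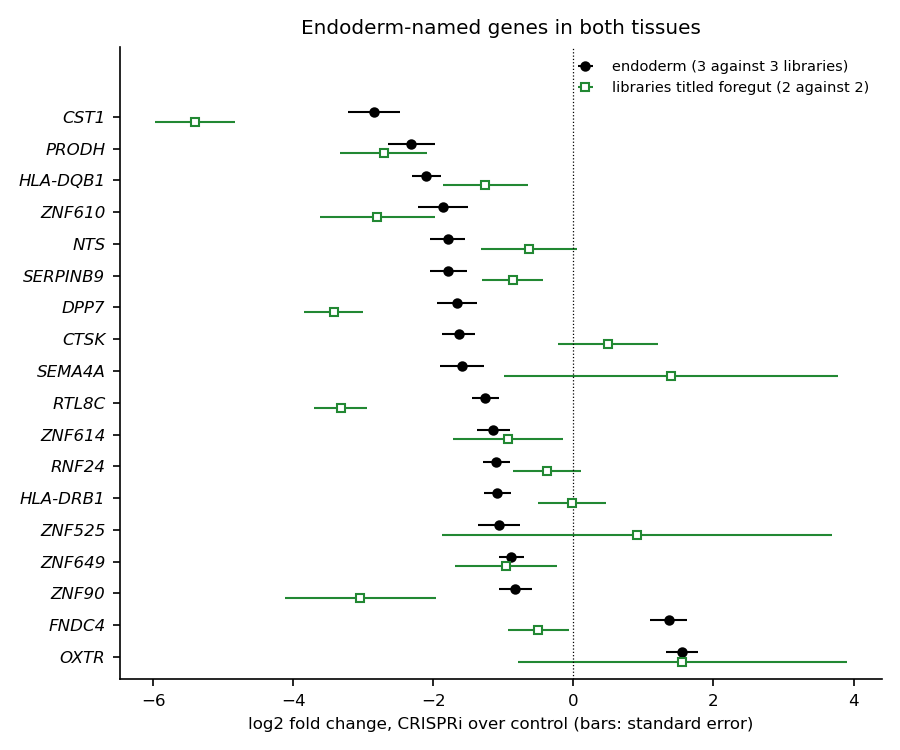
log2FC with standard error of the genes called in endoderm and of those near LTR5 with the smallest p-values, in endoderm (filled, 3 against 3 libraries) and in the libraries titled foregut (open, 2 against 2). CST1, PRODH, ZNF610, DPP7, RTL8C and ZNF90 lie below -2 in foregut, while CTSK, SEMA4A, ZNF525 and FNDC4 lie on the other side of 0 from their endoderm values. The unadjusted edgeR p-values of these last genes in foregut were 0.486, 0.558, 0.744 and 0.248.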

How the data were processed

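Bulk RNA-seq counts of 12 libraries were used, and the 2 gastruloid samples were not used here. According to the study's methods, the authors made stranded mRNA libraries, aligned them to hg19 by HISAT2, and kept unique alignments of MAPQ above 10 to count genes and TEs from 1 annotation. The deposited values are raw read counts per gene or TE integrant, not normalized. Whether strand was used in counting is not stated in the sources used here, so overlapping and antisense genes are uncertain. Samples were grouped by GEO's labels. The libraries titled foregut took their group from the title, and their status field goes against it.

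Genes with at least 3 reads in 1 of the 6 endoderm libraries were tested with edgeR 4.0.16 (quasi-likelihood, TMM, 2-sided, Benjamini-Hochberg adjustment), and a call needed an adjusted p below 0.05 and a change of more than 2-fold. Integrants outside exons were tested likewise, with gene reads as library size. Foregut was fitted alone, and both tissues together for the difference between effects. Distances run from the gene body to the nearest LTR5_Hs or LTR5B integrant in GRCh37. The tests were checked on simulated counts. The same replicate number did not pair libraries (correlations of their deviations 0.0142, -0.0247 and 0.0216). Named genes were the called ones, the 8 lowest and 8 highest log2FCs among far protein-coding genes with groups apart, the smallest p-values within 100 kb (10 genes and 5 ZNF genes), and list members at an unadjusted p below 0.05. Other genes are named as list members for context, chosen after their values were seen. Members and lists were chosen with earlier results of these data known. Of the list members, 3 were not matched. Some results, among them 1 far gene that the rule names, are not reported here. DESeq2 1.42.0, limma 3.58.1, other filters and scalings, and leaving out each library were tried as alternatives. Exact permutation tests used SciPy 1.17.1.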

Additional observations from a re-analysis of the deposited data

Results flagged for a closer look

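The effect of CRISPRi differed between foregut and endoderm, by the test of the difference itself, for 4 of the genes described. The foregut groups rest on titles that another label goes against. These differences are foregut minus endoderm on the log2 scale, with BH-adjusted p-values from edgeR over 22708 genes. RTL8C, beside an LTR5_Hs, was lower in both tissues, and the difference was -2.07 (adjusted p 0.0377). APLN, far from LTR5, was lower in endoderm and higher in foregut, at 1.40 and 1.46 against 11.6 and 8.04 CPM, with a difference of 4.79 (adjusted p 0.0349). For B3GALT5 the difference was 8.82 (adjusted p 0.0464) and for HAND1 -8.35 (adjusted p 0.0277). In foregut B3GALT5 was at 0 and 0 against 0.798 and 0.874 CPM, and HAND1 at 0.325 and 0.949 against 0 and 0 CPM. In foregut alone their unadjusted edgeR p-values were 0.101 and 0.156. Both genes were at 0 in at least 1 foregut group, so the fitted size depends on the prior count and is no bound. No gene differed without foregut control 1, and 11 did without foregut control 2.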

How the results depend on the processing

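The 7 calls in endoderm became 53 with DESeq2, 186 when genes with any read were tested, 8 with RLE size factors and 8 without mitochondrial genes. There was 1 call with limma voom, with at least 10 reads in 3 libraries and with all 12 libraries in the fit, and 1 to 9 when 1 library was left out. Genes lower at an unadjusted p under 0.05 were 314 with all 12 libraries and 315 to 633 without 1 library, and higher ones 187 and 310 to 731. The share lower within 100 kb of LTR5 was 78.8% with all 12 libraries, 73.4% for LTR5B alone and 81.8% for protein-coding genes, and 58.2 to 68.6% without 1 library. Over protein-coding genes at any distance the share lower was 62.0%. With all 12 libraries the balance over all genes moved as well, to 314 lower and 187 higher, against 515 and 541 in the main fit. The share lower beyond 500 kb of LTR5 was 58.6% with all 12 libraries and 56.7% for protein-coding genes, and 38.7 to 48.7% without 1 library. Called integrants were 25 with voom and 2 to 10 without 1 library. The 33 foregut calls were 1 with at least 10 reads in 2 libraries, 11 with voom and 16 to 527 without 1 library, and the 44 differences between tissues 16 with that filter and 0 to 805 without 1 library. The log2FC of LTR5 reads was -0.78 to -0.54 without 1 library. The causes were not tested. With the replicate number as a block, although it did not pair the libraries, there were 10 calls in endoderm, 8 integrants, 19 foregut calls and 0 differences between tissues. The 2-sided sign flip test of LTR5 reads over the pairs gave an exact p of 0.25, the smallest that 3 pairs allow. HLA-DQB1 was called in all 14 alternatives, and the other 6 genes called in endoderm lost the call in 43 of 84 cases, 6 to 8 of 14 for each. Among the genes picked by the naming rule, no value reversed its direction. Genes named only for context are not part of that statement, and many of them lie near 0. The median of the definitive endoderm list ran from -0.17 to 0.14 without 1 library. With 3 libraries a group and few reads in most LTR5 integrants, differences at single integrants were mostly not detectable at this depth.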
